A study of Mus musculus with 76 samples.

Results

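The genes described here are *C1qa*, *C1qb*, *C1qc*, *Ctss*, *Cx3cr1*, *Csf1r*, *P2ry12* and *Tmem119*, 8 of the 56980 genes in a count table of 76 patched hypothalamic cells. They were taken as a list of microglial and complement genes, chosen with earlier results of these cells in view, and their levels by eGFP label and by diet are therefore given as a description without tests. All 8 reached 5 counts in 3 or more cells, a minimum that 12265 genes passed.

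In Patch-seq, a neuron is recorded electrically and its content is then sucked into the recording pipette, here for 3 minutes, and sequenced. The mice were male PomcCreERT2;tdTomato animals that also carried Pomc-eGFP, so all groups shared the tamoxifen-dependent Cre under *Pomc* promoter elements, the Cre-dependent tdTomato and the eGFP transgene. The methods text names the same mice without the eGFP transgene. The mice received tamoxifen when 12 weeks old, and 2 weeks later they went on chow diet (CD) or high-fat diet (HFD), here for 6 months. Traced cells with eGFP were called Pomc+ and traced cells without it Ghost, which gave 4 groups: Pomc+ CD (23 cells), Ghost CD (15), Pomc+ HFD (19) and Ghost HFD (19). The labels name no mouse for any cell, so each label and diet counts as 1 sample and no test between groups was possible. Each cell is called by the number in its label.

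Microglia are the resident macrophages of the brain, and they depend on the receptor encoded by *Csf1r* for survival. C1q, the recognition molecule that starts the classical complement cascade, is built from the chains encoded by *C1qa*, *C1qb* and *C1qc*, and in the brain microglia are its main source. *Ctss* encodes cathepsin S, a lysosomal protease of macrophages and microglia that also cuts the chemokine fractalkine from neurons, whose receptor is encoded by *Cx3cr1*. *P2ry12*, a purine receptor, and *Tmem119*, a membrane protein, are widely used to tell resident microglia from other macrophages.

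The 3 C1q genes lie side by side on the minus strand of chromosome 4 in GRCm38, the build that the submitters' processing notes name. In the GENCODE M21 annotation *C1qb* spans chr4:136880129-136886187, *C1qc* chr4:136889804-136893065 and *C1qa* chr4:136895917-136898803. The locus covers 18675 bases and holds no other annotated gene. *Ctss* lies at chr3:95526786-95556403 on the plus strand, *P2ry12* at chr3:59216272-59262871 and *Tmem119* at chr5:113793729-113800516 on the minus strand. *P2ry12* overlaps *Med12l* and *Csf1r* overlaps *Hmgxb3* on the opposite strand. The gene model of *Cx3cr1* at chr9:119901616-120069879 overlaps 9 other genes, among them *Gorasp1* and *Wdr48*. Whether strand was used in counting is not given in the sources used here, so reads from these overlaps cannot be told apart. The table holds 4907 identifiers that the name table of this annotation lacks, so the annotation used for counting may be a later one.

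Because genes that are counted together in single cells may carry the same sequence features, the 250 bases before the start of transcription are shown for *C1qb*, *Ctss* and *P2ry12*, from RefSeq on GRCm38.p6. Capitals mark GAGGAA on either strand, the core letters of the site of PU.1, a transcription factor of macrophages and microglia. RefSeq windows were matched for 5 of the 8 genes, *C1qb*, *C1qc*, *Ctss*, *Cx3cr1* and *P2ry12*.
*C1qb*, chr4:136886201-136886450, minus strand: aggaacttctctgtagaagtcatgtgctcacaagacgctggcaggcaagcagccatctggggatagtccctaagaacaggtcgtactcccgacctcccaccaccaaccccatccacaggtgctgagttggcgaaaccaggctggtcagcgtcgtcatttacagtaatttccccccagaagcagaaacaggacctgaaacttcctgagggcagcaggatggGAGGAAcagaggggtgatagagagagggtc
*Ctss*, chr3:95526536-95526785, plus strand: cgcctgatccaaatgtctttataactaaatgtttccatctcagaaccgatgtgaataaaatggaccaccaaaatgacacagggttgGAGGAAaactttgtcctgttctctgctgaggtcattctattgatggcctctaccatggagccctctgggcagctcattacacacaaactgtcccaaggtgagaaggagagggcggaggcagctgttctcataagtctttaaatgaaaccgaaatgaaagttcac
*P2ry12*, chr3:59262986-59263235, minus strand: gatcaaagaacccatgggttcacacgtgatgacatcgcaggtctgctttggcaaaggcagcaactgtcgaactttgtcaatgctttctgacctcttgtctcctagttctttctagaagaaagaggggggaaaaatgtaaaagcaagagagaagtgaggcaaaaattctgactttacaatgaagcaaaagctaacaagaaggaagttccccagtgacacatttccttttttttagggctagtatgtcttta
The letters began at position -30 from the start in *C1qb* and at -164 in *Ctss*, and on the other strand at -193 in *C1qc*, whose window overlaps an annotated exon and is not printed. They were not in the windows of *Cx3cr1* and *P2ry12*. Of all 32851 windows of this length, 23.2% held these letters on either strand, so 3 of 5 is a description of few windows and names no binding site.

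The cells held 4057 to 1452605 counts with a median of 322652, and 7 genes counted in every cell took 43.7% of all counts. The 8 genes together took 22703 of 32910186 counts (0.0690%). The libraries carry no molecular identifiers, so counts are of reads, and the intervals and limits given here cover counting error only. *Pomc* was counted in 73 of the 76 cells and *Snap25*, a synaptic protein of neurons, in 67.

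Of the 8 genes, *Ctss* was counted in the most cells, 28 of 76 (36.8%, exact Clopper-Pearson 95% interval 26.1 to 48.7%). The C1q genes followed closely, with *C1qb* in 27, *C1qa* in 26 and *C1qc* in 20 cells. *Cx3cr1* was counted in 13 cells, *P2ry12* in 7, and *Tmem119* and *Csf1r* in 6 each. The shares of *Ctss*, *C1qb* and *C1qa* differed by less than their intervals, as did those of *P2ry12*, *Tmem119* and *Csf1r*. Per kilobase of annotated exon, the mean level over all cells was highest for *Ctss* at 187 CPM (counts scaled to a total of 1000000 in each cell) and *C1qb* at 159, followed by *C1qc* at 88.9 and *C1qa* at 76.3. On the same scale *Tmem119* stood at 48.2, *Csf1r* at 12.01, *P2ry12* at 10.2 and *Cx3cr1* at 7.50. The level of *Tmem119* rests on few reads: cell 713, a Ghost cell on HFD with 12847 counts in all, held 77 of its counts and 70.7% of its summed CPM.

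**Figure D1:**
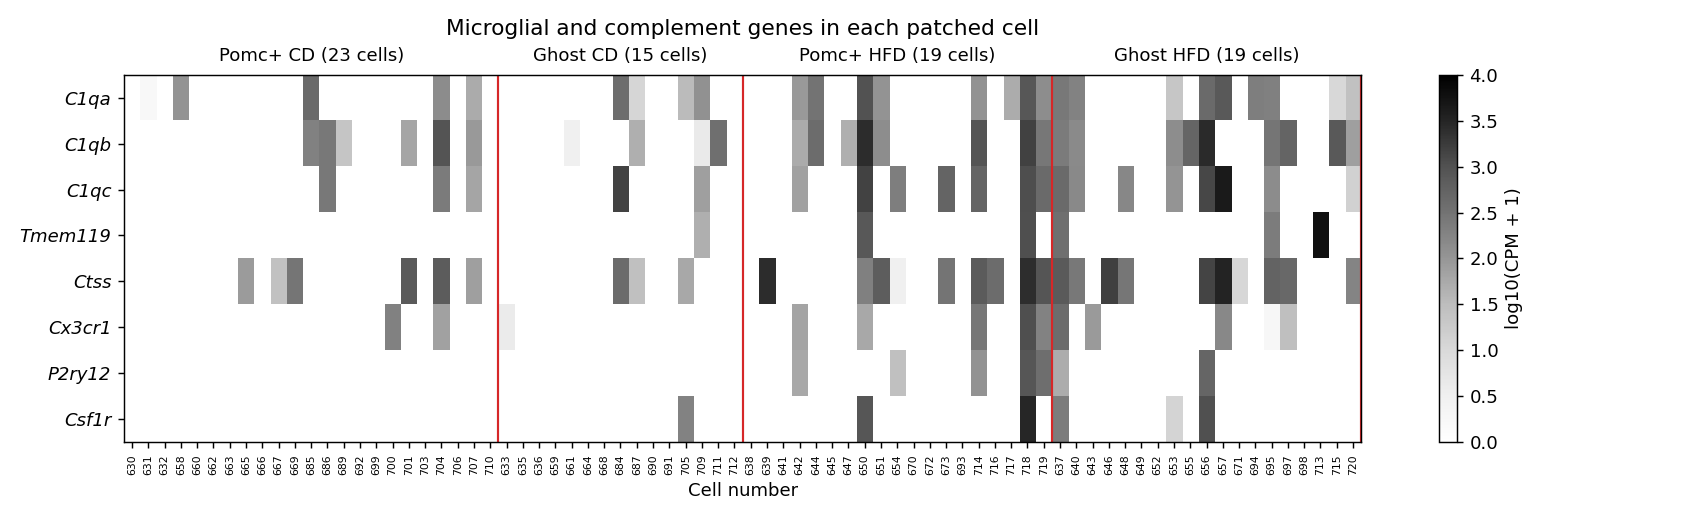
Level of the 8 genes in each of the 76 cells, as log10(CPM + 1) from white (0) to black (4), with cells in columns by group and number. Dark columns, such as cells 650, 718, 637 and 656, are cells in which most of the 8 genes were counted, and *P2ry12* has no dark field on CD.

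At least 1 of the 8 genes was counted in 48 of 76 cells (63.2%, 51.3 to 73.9%) and at least 3 of them in 21 cells (27.6%, 17.99 to 39.1%). Only 9 cells held at least 5 of the genes, 7 cells at least 6, and 2 cells all 8. The 2 cells with all 8 were cell 718, a Pomc+ cell on HFD, and cell 637, a Ghost cell on HFD. In 5 cells with a count no gene reached 5 counts.

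Cell 718 stood highest. It held 4688 counts of the 8 genes in 393797, or 11904.6 CPM, of which *Csf1r* gave 2976.2 CPM, *Ctss* 2529.2 and *C1qb* 1485.5. Cell 657, a Ghost cell on HFD, followed with 8449.6 CPM, but it had only 12900 counts in all and 109 of these genes. Cell 656, a Ghost cell on HFD, had 7343.1 CPM with 6 of the genes, and cell 650, a Pomc+ cell on HFD, 6949.2 CPM with 7. Even in cell 718, the 8 genes took 1.19% of the counts. The top 3 cells held 39.7% of the CPM summed over all 76.

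Of the 28 cells with *Ctss*, 21 also had a C1q gene (75%, 55.1 to 89.3%). Of the 37 cells with a C1q gene, 21 had *Ctss* (56.8%, 39.5 to 72.9%). *Ctss* was counted in 7 of 39 cells without a C1q gene, in 6 of 15 with exactly 1, in 4 of 8 with exactly 2, and in 11 of 14 with all 3. The 7 cells with *Ctss* but no C1q gene had no other gene of the 8. They were cells 665, 667 and 669 (Pomc+ on CD), 639 and 716 (Pomc+ on HFD), and 646 and 671 (Ghost on HFD). Among them cell 639 reached 2631.4 CPM of *Ctss* from 198 counts, while cell 671 had 3 counts.

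The 4 genes of surface proteins, *Cx3cr1*, *Csf1r*, *P2ry12* and *Tmem119*, were counted mainly in cells with C1q. At least 1 of them was in 19 cells, and 15 of these had a C1q gene (78.9%, 54.4 to 93.9%), against 37 of 76 cells overall. All 7 cells with *P2ry12* had *C1qc*, and all 6 cells with *Csf1r* had *C1qa*. Of the 14 cells with all 3 C1q genes, 11 had at least 1 of the 4 genes, against 4 of 39 cells without C1q. The 4 exceptions without C1q were *Cx3cr1* in cells 633, 643 and 700 and *Tmem119* in cell 713. At least 2 of the 4 were counted in 8 cells, all on HFD.

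The reads of the 3 C1q genes were not equal in single cells. The shares below are of reads and are not corrected for annotated exon length. That length is 1040 bases for *C1qa*, 1088 for *C1qb* and 1931 for *C1qc*. Per kilobase, the counts summed over all cells were 2020.2 for *C1qa*, 4320.8 for *C1qb* and 1678.9 for *C1qc*. Over the 14 cells with all 3, *C1qb* gave a median of 45.1% of the C1q counts (1.61 to 70.97%), *C1qc* 31.8% (11.1 to 51.6%) and *C1qa* 23.2% (7.48 to 59.7%). Cell 637 had 335 counts of *C1qa*, 311 of *C1qb* and 567 of *C1qc*. Cell 656 had 144, 896 and 444 in the same order, and cell 709 had 37, 1 and 24. The ranges of the 3 genes overlap, and no gene gave the most reads in every cell. Of the 37 cells with C1q, 15 had counts of only 1 of the 3 genes and 8 of 2.

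Cells on HFD held more of the genes than cells on CD. The share with at least 3 of the 8 was 6 of 38 on CD (15.8%, 6.02 to 31.2%) and 15 of 38 on HFD (39.5%, 24.04 to 56.6%), and these intervals overlap. By group, it was 2 of 23 Pomc+ CD cells (8.70%), 4 of 15 Ghost CD cells (26.7%), 7 of 19 Pomc+ HFD cells (36.8%) and 8 of 19 Ghost HFD cells (42.1%). No CD cell held more than 5 of the genes (0 of 38 with at least 6, exact upper limit 9.25%), whereas 7 of 38 HFD cells did. Thinned to 40000 counts per cell, which left out 8 shallower cells, the shares were 6 of 33 on CD (18.2%) and 11 of 35 on HFD (31.4%).

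**Figure D2:**
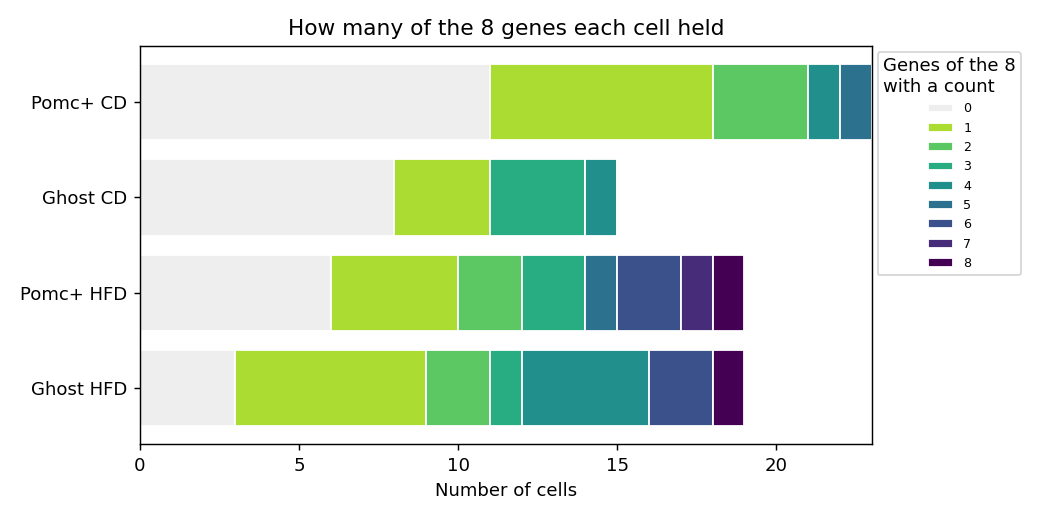
Number of cells in each group (bar length) by how many of the 8 genes they held, from 0 (grey) to 8 (dark purple). Fields for 6 or more genes are present only in the HFD bars, with 4 Pomc+ and 3 Ghost cells.

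The summed level of the 8 genes had a mean of 216 CPM on CD and 1621.1 CPM on HFD, a ratio of 7.51. On CD the cells ranged from 0 to 2253.8 CPM with a median of 0.344, and on HFD from 0 to 11904.6 CPM with a median of 419, so the ranges overlap. The ratio was 7.27 within Pomc+ cells and 7.78 within Ghost cells, and it lay between 6.23 and 10.1 when each cell was left out in turn. Without the 3 cells that held at least 7 genes it was 5.30. Among the cells with at least 3 genes, the 6 on CD had a median of 277 CPM (83.9 to 2253.8) and the 15 on HFD 1391.1 CPM (244 to 11904.6). The median depth of these cells was 267193 counts on CD and 471057 on HFD.

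Each of the 8 genes had a mean CPM at least 2-fold higher on HFD, where 22.9% of all genes did. The share of cells with a count was at least 2-fold higher for 6 of the 8, where 11.4% of all genes passed. Without the HFD cell with its highest level, each of the 8 had a mean at least 2-fold higher on HFD. No gene of the 8 was at least 2-fold lower, where 18.2% of all genes were. The median log2 ratio of mean CPM was 2.97 over the 8 genes and 0.05 over all 12265. Nothing is read from these counts and ratios, because the genes were chosen on this comparison. *Ctss* was counted in 9 CD and 19 HFD cells, with means of 63.1 and 444 CPM (7.04-fold). *C1qc* was counted in 5 CD and 15 HFD cells (54.9 and 289 CPM), *C1qb* in 10 and 17 (51.2 and 294 CPM) and *C1qa* in 9 and 17 (33.5 and 125 CPM). For *C1qa* and *C1qb* the share of cells was less than 2-fold higher, at 23.7 and 26.3% on CD and 44.7% for each on HFD.

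The surface genes were rarer on CD still. *P2ry12* was counted in 0 of 38 CD cells (exact upper limit 9.25%) and in 7 of 38 HFD cells. Set against a limit of 3 counts over all CD cells, its level from summed counts was 243-fold higher on HFD, and 151-fold without cell 718. These folds are not lower bounds, because the limit covers counting error only and each cell with the gene held at least 13 reads. The 7 cells were 718 with 863 CPM, 656 with 503, 719 with 368, 714 with 112, 642 with 56.3, 637 with 49.7 and 654 with 26.6. Their counts ran from 13 to 340, and the Pomc+ and Ghost values overlap.

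*Csf1r* had 23 counts in 1 CD cell, the Ghost cell 705 (186 CPM), and was otherwise counted only on HFD, in cells 718 (2976.2 CPM), 656 (1006.6), 650 (858), 637 (232) and 653 (10.99). *Tmem119* had 15 counts in 1 CD cell, the Ghost cell 709 (47.4 CPM). On HFD it was counted in cells 713 (5993.6 CPM), 718 (1061.5), 650 (788), 637 (357) and 695 (236). Pomc+ cells on CD had no count of *Csf1r*, *Tmem119* or *P2ry12* in 23 cells, for which the exact upper limit is 14.8% for each. *Cx3cr1* was counted in 3 CD cells, 700 (191 CPM), 704 (68.8) and 633 (2.99, from 2 counts), and in 10 HFD cells, led by 718 (1058.9 CPM), 637 (396) and 714 (270.2).

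**Figure D3:**
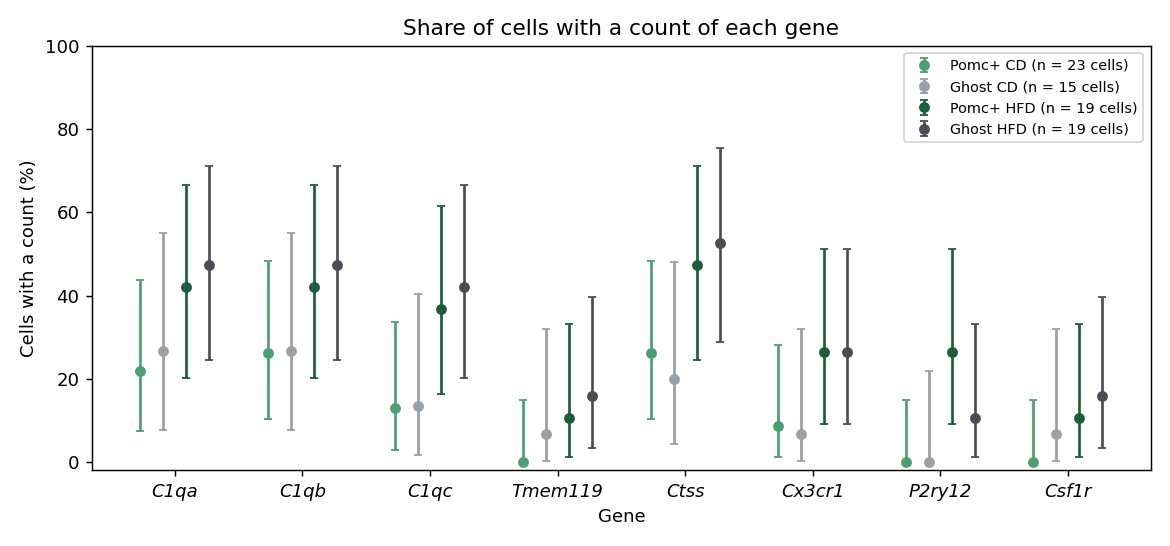
Share of cells with a count of each gene (points, %) in the 4 groups, with exact Clopper-Pearson 95% intervals that treat the cells as independent draws. For all 8 genes both HFD points lie above both CD points, while the intervals overlap.

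The diets were not interleaved cell by cell. In the order of the numbers the cells fall into 8 runs of 1 diet each, and what a run stands for is not stated in the labels. The share with at least 3 genes was 0 of 6, 0 of 12, 2 of 8 and 4 of 12 in the CD runs, and 9 of 21, 0 of 4, 2 of 5 and 4 of 8 in the HFD runs. CD cells numbered to 669 thus held 0 of 18 such cells with a mean of 28.6 CPM, and CD cells from 684 on 6 of 20 with 384 CPM. Among cells numbered from 684 on, an alternative chosen after seeing the data, the HFD share was 6 of 13 and the ratio of mean summed CPM between the diets 5.38. Because runs were cut where the diet changes, no comparison of the diets within a run can be made.

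**Figure D4:**
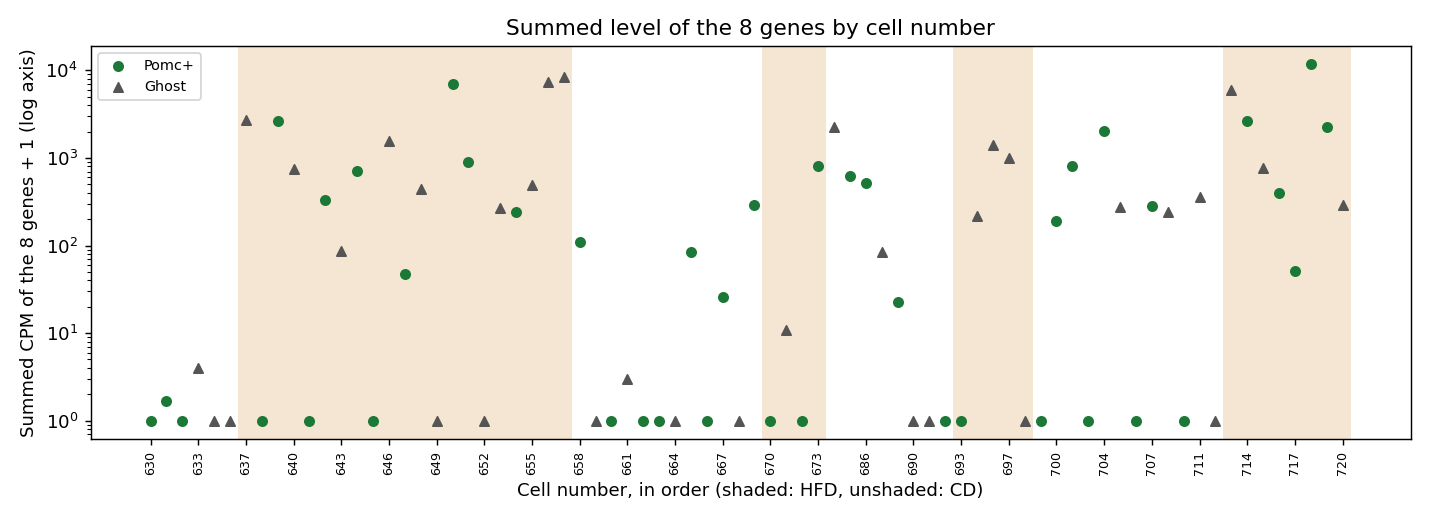
Summed CPM of the 8 genes plus 1 (log axis) in each cell in the order of the cell numbers, with HFD runs shaded and CD runs unshaded, circles for Pomc+ and triangles for Ghost cells. CD cells numbered to 669 stay at or below 292 CPM, while CD cells from 684 on reach 2253.8 CPM.

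Between the eGFP labels the genes did not move together. At least 3 of them were in 9 of 42 Pomc+ cells (21.4%, 10.3 to 36.8%) and 12 of 34 Ghost cells (35.3%, 19.7 to 53.5%), with intervals that overlap widely. The mean summed level was 830 CPM in Pomc+ and 1028.2 CPM in Ghost cells, a ratio of 1.24. Of the 5 runs of cell numbers with any such cell, the share was higher in Ghost cells in 4 and lower in 1. Among the 4, 1 run had a single Pomc+ cell, cell 693 with 10534 counts, against 4 Ghost cells. The largest run had 4 of 10 Pomc+ and 5 of 11 Ghost cells. The ratio of mean summed CPM was 0.993 within CD and 1.06 within HFD, 0.968 without cell 657, a Ghost cell, and 1.84 without cell 718, a Pomc+ cell. Mean CPM was at least 2-fold higher in Ghost cells for *C1qc* and *Tmem119*, where 16.4% of all genes were, and at least 2-fold lower for *Cx3cr1*, *P2ry12* and *Csf1r*, where 26% of all genes were. Each of these 5 ratios rests on 1 cell. Without cell 713, which held 90.3% of the Ghost sum of *Tmem119*, its ratio of Ghost to Pomc+ was 0.441 in place of 4.43, and without cell 657 that of *C1qc* was 1.01 in place of 2.09. Without cell 718 the ratio was 0.961 for *Cx3cr1*, 1.18 for *P2ry12* and 2.02 for *Csf1r*, in place of 0.435, 0.479 and 0.463. *C1qa*, *C1qb* and *Ctss* had ratios of 0.981, 0.953 and 1.10. The share of cells was at least 2-fold higher in Ghost cells for 2 of the 8 genes, *Tmem119* and *Csf1r* (5.37% of all genes), and at least 2-fold lower for *P2ry12* (13.2% of all genes). *Csf1r* thus had more Ghost cells with a count, 4 of 34 against 2 of 42, and a lower Ghost mean, 42.2 against 91.3 CPM, since cell 718 alone held 77.6% of its summed CPM in Pomc+ cells.

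Other genes of microglia were counted more in the cells with several of the 8. On a list of 35 further microglial genes, each was counted in at least 1 cell. The list held *Ctsz*, a lysosomal protease counted in 42 cells, and *Tyrobp* and *Fcer1g*, signalling adaptors of myeloid receptors, in 24 and 20. Cells with at least 3 of the 8 genes held a median of 8 of the 35 (949 CPM) and the other 55 cells 2 (217 CPM). The former were also deeper, with a median of 410742 counts and 4074 genes against 256265 counts and 2540 genes. In the 7 cells with at least 6 of the 8 genes, the median was 19 of the 35, and up to 34 were counted in 1 cell. Cells with *Ctss* but no C1q gene held a median of 1 of the 35 and no count of *Ly86* or *Fcer1g*, as against 5 in cells with both *Ctss* and C1q, where *Ly86* was in 12 of 21 and *Fcer1g* in 12 of 21. The 28 cells with none of the 8 genes also held a median of 1.

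Likeness was measured over the 76 cells as Pearson's r with the mean log2(CPM + 1) of the 8 genes, which describes these cells and carries no test because the cells differ in depth and share mice that the labels do not give. Among the 10 genes most like them were *Ly86* (0.77), *Gpr34* (0.72), *P2ry13* (0.72), *Pld4* (0.71), *Laptm5* (0.69), *Vsir* (0.69), *Cyba* (0.69), *Unc93b1* (0.67) and *Selenop* (0.67). Several rest on few cells, *Pld4* and *Vsir* on 4 each and *P2ry13* on 5. Of these 10, 6 were on the list of further microglial genes, as were 19 of the top 50, while that list makes up 0.245% of the 12257 genes ranked. The list's median r was 0.56 with 30 of 30 genes above 0, whereas the median of all genes was 0.01 and 95% of them lay between -0.18 and 0.30. The list was chosen with earlier results of these cells known, so its place in this ranking is a description only. Each of the 8 was also set against the mean of the other 7. *C1qc* had the highest r (0.75, rank 2 of 12258 genes), then *C1qa* (0.71) and *P2ry12* (0.63), and *Tmem119* the lowest (0.44, rank 87). The mean level of the 8 genes had r of 0.12 with the log10 of total counts and 0.24 with the mitochondrial share.

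**Figure D5:**
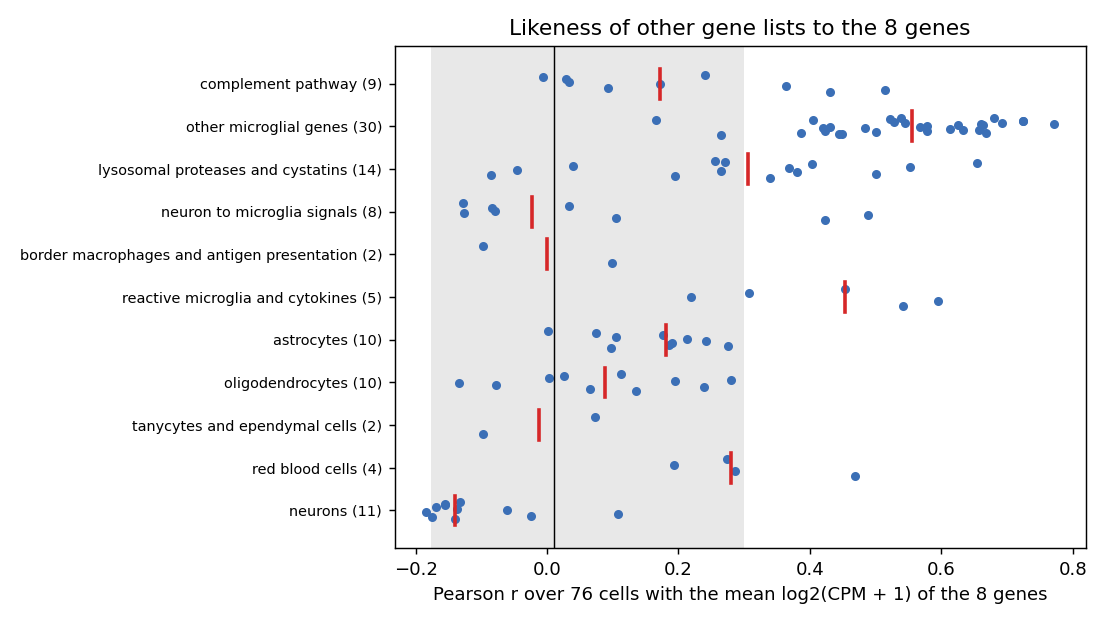
Pearson's r over 76 cells between each gene and the mean log2(CPM + 1) of the 8 genes, by gene list (points, with the number of genes) and with the list's median (red bar). The grey band holds 95% of all 12257 genes and the black line their median, and the further microglial genes sit mostly to the right of the band with a median of 0.56.

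Later steps of the complement cascade were hardly counted. Of 24 other complement genes, 19 had a count in any cell and 9 passed the minimum of 5 counts in 3 cells. *C3*, the central component cleaved by all complement pathways, was counted in 1 cell, 715, at 27.8 CPM, and *C4b*, which C1 activates, in 3 cells with up to 878 CPM in cell 656. Genes that restrain complement were more widespread. *Clu* was counted in 51 cells (338 CPM on CD, 221 on HFD), *Cd59a* in 18, *Serping1*, the inhibitor of C1, in 15 and *Cr1l* in 10. The list's median r with the 8 genes was 0.17.

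Among lysosomal proteases and their inhibitors, *Cst3*, which encodes the cathepsin inhibitor cystatin C, was counted in 75 cells, *Ctsb* in 58, *Ctsd* in 54 and *Lamp1*, a membrane protein of lysosomes, in 48. *Cst3* had a mean of 2812.5 CPM in the 21 cells with at least 3 of the 8 genes and 986 CPM in the rest. Of the 14 genes of this list that were tested, 2 were at least 2-fold higher on HFD and 2 at least 2-fold lower, where 22.9 and 18.2% of all genes were. The list's median r was 0.31. Of 16 reactive and cytokine genes, 12 had a count in any cell, and *Clec7a*, *Spp1*, *Il1b* and *Il6* had none. The 5 that were tested had a median r of 0.45. *Apoe*, a lipid carrier of astrocytes and microglia, was counted in 57 cells, *Cd9* in 14 and *Ccl12* in 12.

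Neuronal genes for signals to microglia were counted in cells with and without the 8 genes. *Cx3cl1*, which encodes fractalkine, was counted in 29 cells, 8 of the 21 with at least 3 of the genes (38.1%) and 21 of the other 55 (38.2%), with means of 37.4 CPM on CD and 90.03 CPM on HFD. The ligands of CSF1R were sparser, *Csf1* in 15 cells and *Il34* in 6. *Cd200* and *Cd47*, neuronal signals to myeloid cells, were counted in 45 and 41 cells. The r of the genes named here with the 8 ran from -0.13 for *Cx3cl1* to 0.03 for *Csf1*. The full list also held other genes, such as *Sirpa*. Over its 8 genes that were tested, the median r was -0.02, with a range of -0.13 to 0.49.

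Neuronal RNA was present beside the microglial genes. Of the 21 cells with at least 3 of the 8 genes, *Pomc* was counted in 20 and *Snap25* in 19, and each of the 21 had at least 1 of these. Their median *Pomc* level was 3600.7 CPM, against 2675.9 in the other cells, while their mean *Pomc* level was 5075.5 CPM against 7104.6 and their median *Snap25* level 409 CPM against 520. In the 7 cells with at least 6 of the genes the median *Pomc* level was 1124.3 CPM, and in the 28 with none 5066.7. The 11 neuronal genes, which include *Pomc* and *Cartpt*, summed to a median of 9695.2 CPM in the 21 cells and 9211.4 in the rest. Among the 7 cells with at least 6 of the genes, this sum was 1198.4 CPM in cell 656, 1442.4 in cell 650 and 1493.2 in cell 718. It was 4057.1 in cell 695, 11834.7 in cell 714, 20330.3 in cell 637 and 26694.5 in cell 719. The median r of the 11 neuronal genes with the 8 genes was -0.14, with 1 of 11 above 0. The share of counts in the 8 genes and the 35 further microglial genes together was at most 2.54%, in cell 718. Whether these counts came from the patched neuron or from neighbouring cells was not tested.

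Markers of other cells were counted as well. Border macrophage and antigen presentation genes were low, with a median sum of 0 CPM and at most 845 CPM in cell 656, and 12 of 14 genes were counted in 20 cells, *Cd74* in 6, and *Mrc1* and *Lyve1* in 3 each. All 10 astrocyte genes were counted, led by *Aldoc* in 56 cells, with a median sum of 507 CPM in the 21 cells and 373 in the rest, and all 12 oligodendrocyte genes, with *Mbp* in 42 cells and median sums of 261 and 234 CPM. Endothelial genes were counted in 10 cells, mural genes in 7, and oligodendrocyte precursor genes in 7. Of 6 tanycyte and ependymal genes, *Vim*, which many cell types express, was counted in 44 cells, *Col23a1* in 6, and *Rax* in none. By diet, the mean sum of the astrocyte genes was 774 CPM on CD and 752 on HFD, that of the oligodendrocyte genes 302 and 586, and that of 4 red blood cell genes 29.02 and 252. The lists of other genes were also chosen with earlier results of these cells known, so their counts by diet are a description only. Of the further microglial genes that were tested, 24 of 30 had a mean at least 2-fold higher on HFD, against 22.9% of all genes. Of the red blood cell genes 3 of 4, and of the oligodendrocyte genes 3 of 10, had such a mean, while the 11 neuronal genes summed to a mean of 16651.7 CPM on CD and 9985.9 on HFD. The median depth was 237139 counts on CD and 352486 on HFD. At equal depth the shares by diet were the thinned ones given above. What part the other genes have in the values by diet was not tested.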

How the data were processed

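Patch-seq libraries of 76 cells were analysed, made with the SMART-Seq Single Cell and Nextera XT kits. The deposited raw table holds whole-number counts per Ensembl gene and cell, and the deposited normalized table a signal that the authors obtained by dividing each count by the cell's size factor (0.0157 to 9.05). The submitters' processing notes name cutadapt 2.10, STAR 2.7.5a, DESeq2 and GRCm38/mm10. The counting program and annotation are not given in the sources used here. Counts were scaled to CPM of each cell's total. Symbols matched 52073 of 56980 identifiers. Log values used a pseudocount of 1. The background was the genes that reached 5 counts in 3 or more cells, and a change meant 2-fold in mean CPM or in the share of cells. No doublet caller was run. The 8 genes and 14 other lists were chosen with earlier results of these data known. Named genes were the 8, the 10 most like them, up to 4 per list by cells with a count, and *Cx3cl1*, *Csf1*, *Il34*, *Cd200*, *Cd47*, *C3* and *C4b*. Some genes that this rule names are not reported here. *Ly86* and *Fcer1g* by class of cell, *Mrc1*, *Lyve1*, the 4 cells with a surface gene but no C1q and the 7 cells with *Ctss* alone were chosen after their values were seen. The reactive and cytokine genes without a count were also named after their values were seen. Shares carry exact Clopper-Pearson intervals at 95%, and a fold against 0 uses a limit of 3 counts over the group. Thinning drew counts without replacement. Scripts were tested on simulated data and run with Python 3.11.15, NumPy 2.4.6, pandas 2.3.3 and SciPy 1.17.1. Alternatives were a minimum of 5 counts, thinning to 40000, a cell filter of 1000 genes and 20% mitochondrial counts (leaving 71 cells), the normalized table, CPM leaving out 7 genes that every cell held, sums of counts, within-group values and leaving out each cell.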

Additional observations from a re-analysis of the deposited data

How the results depend on the processing

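No paired analysis was possible because no cell number occurs in more than 1 group and no test was made. Of the alternatives to the shares and ratios that answer a comparison, 63 of 71 kept the direction and, for a ratio, stayed within 1.5 times, or, for a share, within its 95% interval. Those intervals are wide. The CD share of 15.8% was 7.89% without *Ctss*, 8.70% within Pomc+, 26.7% within Ghost and 30% among cells numbered from 684 on, and the Pomc+ share of 21.4% was 33.3% with at least 2 genes. The ratio of mean summed CPM between Ghost and Pomc+ cells did not hold its direction. On the log2 scale it was 0.31, against 1.23 with the normalized table, 1.29 without the 3 cells with at least 7 genes, -0.0103 within CD, -0.49 among cells numbered from 684 on, and -0.0462 to 0.88 when leaving out each cell. Cell 657, a Ghost cell with 109 counts of the genes, had the lowest size factor, 0.0157. Its part in the value from the normalized table was not tested. The sets without 3 cells and from 684 on were chosen after seeing the data. The log2 ratio between the diets, 2.91, was 3.74 with counts summed before scaling and 2.64 to 3.34 when leaving out each cell. The Pomc+ share with at least 3 genes was 8.70% within CD and 36.8% within HFD. Single genes whose log2 ratio of Ghost to Pomc+ reversed were *C1qa* at 1.10 and *Cx3cr1* at 0.44 with the normalized table, and *C1qb* at 0.32 with CPM leaving out the genes that every cell held. Without the cell with the highest level in the group with the higher mean, chosen after seeing the data, the log2 ratios between the labels that reversed were *C1qa* at 0.45, *C1qb* at 0.52, *Tmem119* at -1.18, *Ctss* at -0.44, *P2ry12* at 0.24 and *Csf1r* at 1.01. The cause was not tested. Depth limits the zeros: 8 cells held fewer than 40000 counts.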
